A study of Homo sapiens with 6 samples.

Results

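The genes SSTR2, NTRK2, NCAM1, CHRNA5, CHRNA3 and CHRNB4 encode cell-surface receptors and an adhesion molecule that have been linked to the transcription factor NeuroD1 in neuroendocrine lung cancer. They were examined in the human small cell lung cancer lines H524 and H82. The members were all listed NeuroD1 and H3K4me3 regions that lay within 50 kb of the hg19 spans of these 6 genes, which form 4 loci because CHRNA5, CHRNA3 and CHRNB4 lie side by side. They numbered 43 of the 61250 distinct regions in 4 peak lists. The groups were untreated H524 cells with a NeuroD1 antibody (23 of 20593 regions), untreated H82 cells with the same antibody (2 of 3854), untreated H524 cells with an H3K4me3 antibody (11 of 18595) and untreated H82 cells with that antibody (7 of 18208). Each group was 1 library of 1 established cell line. Without replicates the values below are descriptions and carry no p-values. The files hold no read numbers, so depth is unknown, and a gene without a listed region may still be bound or marked below the calling threshold. Shares are given with 95% Clopper-Pearson (exact) bounds. These bounds reflect counting error alone, and regions of 1 locus are not independent of each other.

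NeuroD1 is a basic helix-loop-helix factor that binds E-boxes as a dimer with an E-protein and drives neuronal and endocrine gene programmes, and it marks a neuroendocrine subtype of small cell lung cancer. H3K4me3 is a histone mark of active promoters. SSTR2 is an inhibitory G-protein-coupled receptor for the peptide hormone somatostatin and is the target of somatostatin analogues used in neuroendocrine tumours. NTRK2 encodes TrkB, the receptor tyrosine kinase for brain-derived neurotrophic factor. NCAM1 encodes the homophilic adhesion molecule CD56, a diagnostic marker of small cell lung cancer. CHRNA5, CHRNA3 and CHRNB4 encode the alpha5, alpha3 and beta4 subunits of nicotinic acetylcholine receptors, which are ligand-gated cation channels, and variation at this cluster is associated with smoking behaviour and lung cancer risk.

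E-boxes have the letters CANNTG, which read the same on both strands. Promoter sequences from RefSeq (build GRCh38.p14, 250 bases before to 50 after a gene start) were matched for 4 of the 6 genes, with 7 starts in all. Of 35116 human promoters of the same length, 68.7% held at least 1 CANNTG. Those of SSTR2 and CHRNB4 are shown because H524 had NeuroD1 at these gene starts, and 1 of the 4 NTRK2 starts is shown because no NeuroD1 was listed near that gene. E-boxes are in capitals, and these GRCh38.p14 positions cannot be set beside the hg19 positions of the regions.
SSTR2, chr17:73164760-73165059, plus strand: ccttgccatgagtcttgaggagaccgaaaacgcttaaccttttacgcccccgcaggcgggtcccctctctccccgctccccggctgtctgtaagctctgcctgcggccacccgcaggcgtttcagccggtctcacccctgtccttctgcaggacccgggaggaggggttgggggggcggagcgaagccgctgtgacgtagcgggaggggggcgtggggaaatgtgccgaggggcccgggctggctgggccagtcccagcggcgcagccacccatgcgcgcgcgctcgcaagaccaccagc
CHRNB4, chr15:78641161-78641460, minus strand: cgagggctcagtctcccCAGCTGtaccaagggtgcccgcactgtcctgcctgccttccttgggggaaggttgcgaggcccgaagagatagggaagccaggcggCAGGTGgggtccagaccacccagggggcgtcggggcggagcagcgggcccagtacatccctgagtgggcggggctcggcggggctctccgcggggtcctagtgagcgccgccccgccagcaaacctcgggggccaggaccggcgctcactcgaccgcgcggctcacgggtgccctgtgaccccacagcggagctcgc
NTRK2, chr9:84669783-84670082, plus strand: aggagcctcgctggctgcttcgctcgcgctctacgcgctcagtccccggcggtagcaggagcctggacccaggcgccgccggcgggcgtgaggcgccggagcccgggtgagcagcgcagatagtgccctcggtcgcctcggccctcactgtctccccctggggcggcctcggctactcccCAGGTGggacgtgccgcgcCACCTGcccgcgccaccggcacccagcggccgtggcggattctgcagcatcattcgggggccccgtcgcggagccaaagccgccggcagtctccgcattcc
The SSTR2 promoter held no CANNTG in this window. The CHRNB4 promoter held CAGCTG with its first base 233 bases before the start and CAGGTG 147 bases before it. CAGCTG, a form of the E-box that reads the same on both strands, was in 17.9% of all promoters. The 4 NTRK2 promoters differed, since 2 held no CANNTG and 2 held 2 each. The printed one, chosen from those with E-boxes, held CAGGTG and CACCTG, which are the same letters on opposite strands, 70 and 51 bases before the start, and 36.4% of all promoters held 2 or more CANNTG. The CHRNA3 promoter held 1 E-box, CACCTG. The letters CAGATG or, on the other strand, CATCTG were present in 14.7% of all promoters and in none of these 7. A match is a description of the letters and not evidence of binding.

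In H524 3 of the 4 loci carried NeuroD1, and in H82 1 did. H524 had 12 NeuroD1 regions near SSTR2, 7 near the nicotinic receptor cluster, 4 near NCAM1 and 0 near NTRK2. H82 had 2 near the nicotinic receptor cluster and 0 near each of the other loci. H3K4me3 was listed near the same 3 loci in each line. Its regions numbered 3 near SSTR2, 2 near NCAM1 and 6 near the nicotinic receptor cluster in H524, and 3, 2 and 2 at these loci in H82. The whole H524 NeuroD1 list was longer than that of H82, with 7.01 regions per Mb of tiled genome in H524 and 1.31 in H82. With the H524 list limited to its 3854 highest-scoring regions, the length of the H82 list, H524 had 4 near SSTR2, 1 near NCAM1 and 3 near the nicotinic receptor cluster.

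**Figure D1:**
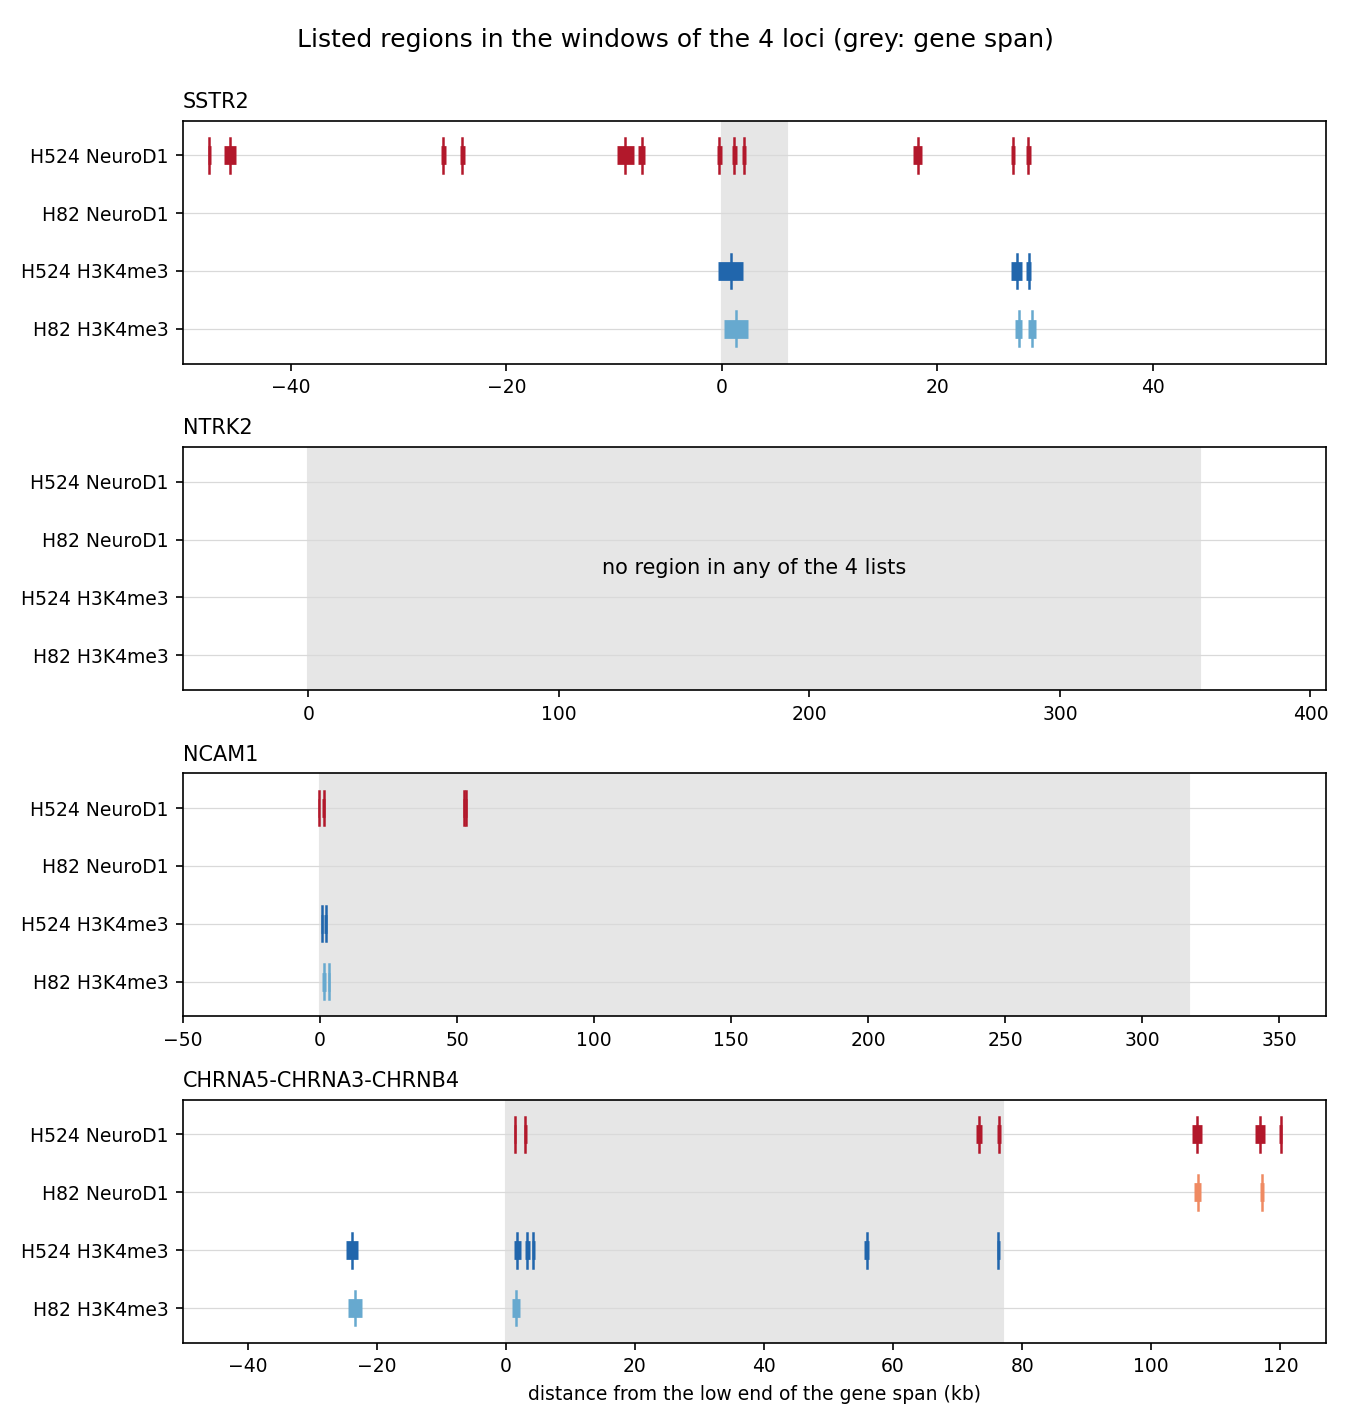
Position of every listed region in the window of each locus, as distance in kb from the low end of the gene span (grey), with a row per line and antibody; thick bars show the width to scale and thin lines mark the centre. SSTR2 shows 12 NeuroD1 regions in H524 and 0 in H82, and NTRK2 shows none in any list.

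The number of regions per window was read against tiles of the same width laid over the genome. Near SSTR2 the 12 NeuroD1 regions of H524 came to 113 per Mb. Of all tiles as wide as the SSTR2 window (106 kb), 37.2% held at least 1 H524 NeuroD1 region, and on chromosome 17 this was 56.6%. As many as 12 were held by 26 of these 27719 tiles (0.0938%), which were not placed around genes. For H82, whose SSTR2 window was empty of NeuroD1, 10.8% of these tiles held a region and 24.8% did on chromosome 17. The 4 NCAM1 regions of H524 came to 9.59 per Mb, close to the 7.01 per Mb of the whole list, and 70.2% of tiles of that width (417 kb) held at least 1, against 30.6% for H82. At least 4 H524 regions were held by 30.2% of these tiles. At the nicotinic receptor cluster (177 kb) the densities were 39.5 per Mb in H524 and 11.3 per Mb in H82, where 49.4% and 16.5% of tiles held a NeuroD1 region. For H3K4me3, 30.9% of the tiles as wide as the SSTR2 window held a region in H524 and 28.3% in H82. At the NCAM1 width these shares were 62.0% and 58.3%, and at the width of the nicotinic receptor cluster 41.8% and 38.5%. Of tiles of 100 kb, 36.0% held a NeuroD1 region in H524 and 10.3% in H82, and 29.8% and 27.2% held an H3K4me3 region. A NeuroD1 region somewhere in a window was thus more common over the H524 list than over the H82 list at each of these widths, while the H3K4me3 lists were close.

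**Figure D2:**
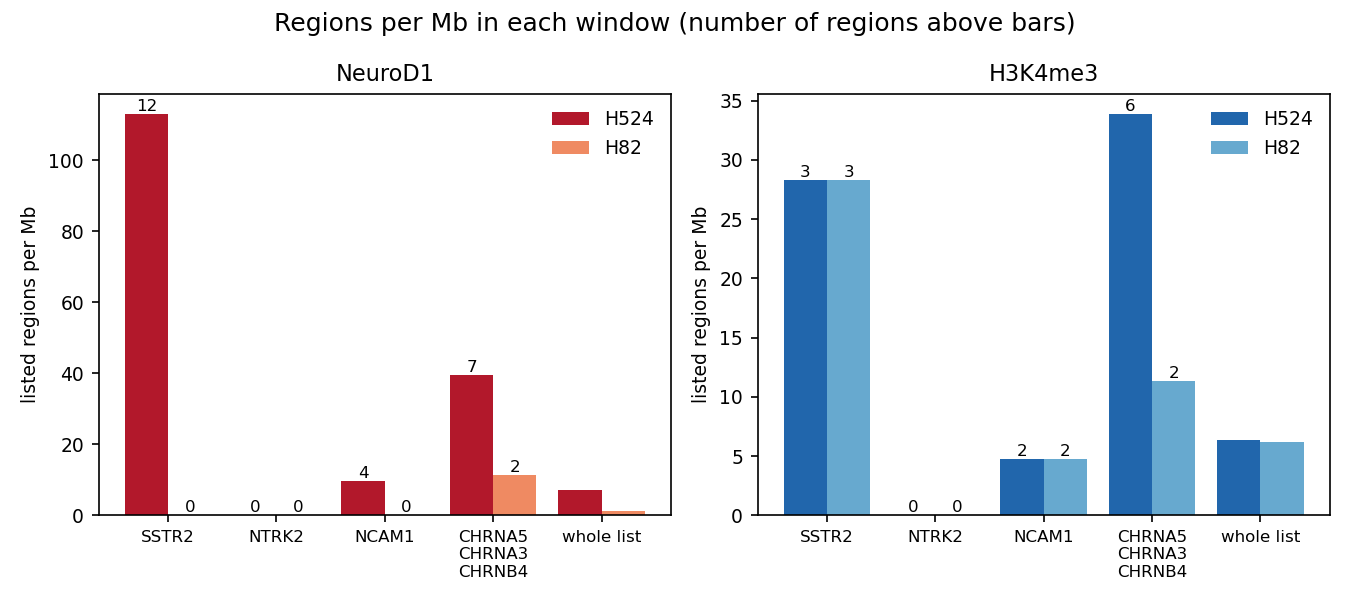
Listed regions per Mb in the window of each locus and over the whole list, for H524 (dark) and H82 (light), with the number of regions above each bar. The SSTR2 window reaches 113 NeuroD1 regions per Mb in H524, against 7.01 over its whole list.

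SSTR2 lies on chromosome 17, and its span in the rule runs from 71.161 to 71.167 Mb with the gene start at the low end. Span ends are known to 1 kb, so distances below that are not resolved. Each region carries the authors' score, read as −log10 of an adjusted p-value, and its percentile is the share of its own list with a lower score. The strongest NeuroD1 regions of H524 lay away from the gene start. The highest-scoring, at chr17:71114833-71115913, was 1081 bp wide with 2 summits, lay 45.1 kb below the start and scored 39.5, which was rank 111 of its list (percentile 99.5). The region at chr17:71153246-71153852 scored 14.0 (percentile 92.9) and lay 7.15 kb below the start. Its neighbour at chr17:71151223-71152890, 355 bp away, was 1668 bp wide with 3 summits and scored 12.7 (percentile 91.4). On the other side, chr17:71178748-71179554 lay 11.7 kb beyond the high end of the span and scored 9.55 (percentile 84.6). The region at chr17:71113312-71113574 scored 4.81 (percentile 56.9) and was the outermost of the window. The remaining 7 regions scored 2.12 to 4.81.

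At the SSTR2 start itself H524 had 3 low-scoring NeuroD1 regions that overlapped the promoter mark, named here after their values were seen. They lay at chr17:71160502-71160987 (score 2.85), chr17:71161932-71162358 (3.03) and chr17:71162877-71163254 (2.12), with percentiles of 29.0, 32.0 and 17.3. All 3 overlapped the H524 H3K4me3 region at chr17:71160611-71162996, which was 2386 bp wide with 5 summits and scored 6.26 (percentile 78.0). The second lay wholly inside it, while 77.6% of the first and 31.7% of the third did. H82 carried the mark at the same place without listed NeuroD1. Its H3K4me3 region at chr17:71161182-71163420 was 2239 bp wide with 4 summits, scored 7.52 (percentile 86.1) and shared 1815 bp with that of H524.

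Beyond SSTR2 a further pair of H3K4me3 regions was listed in each line, 20.9 to 22.4 kb above the high end of the span. The next protein-coding gene on that side in the RefSeq gene order (GRCh38.p14) is COG1, a subunit of a Golgi tethering complex, and whether the regions mark its start was not looked up in hg19. In H524 they lay at chr17:71187861-71188852 and chr17:71189214-71189681, scored 10.6 and 7.92 (percentiles 95.6 and 88.4), and each overlapped a NeuroD1 region. In H82 they lay at chr17:71188218-71188823 and chr17:71189385-71190120, with scores of 2.91 and 3.01 (percentiles 37.3 and 38.2), and overlapped none. The NeuroD1 regions of H524 there, at chr17:71187809-71188180 and chr17:71189183-71189647, scored 3.72 and 4.81.

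The empty NeuroD1 window of H82 at SSTR2 depended on its width. The nearest H82 region, at chr17:71104245-71104713, lay 56.3 kb below the span, just outside the window, and scored 2.18 (percentile 21.3). On the other side chr17:71244951-71245268 lay 78.0 kb above it and scored 3.80. In H524 the first region outside was at 57.2 kb and scored 1.44, and the outermost inside was at 47.4 kb. With 100 kb on each side the SSTR2 window held 18 NeuroD1 regions in H524 and 2 in H82.

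NTRK2 lies on chromosome 9 between 87.283 and 87.639 Mb, with its first start at the low end. No region of either antibody was listed within 50 kb of it in either line. The gene sat in a stretch of 1.76 Mb without a region in any of the 4 lists, bounded by the H82 H3K4me3 region at chr9:86596096-86597474 and the H524 H3K4me3 region at chr9:88355381-88355656. It was number 5 by length among such stretches on the chromosome, where the 4 lists together held 2418 regions. The nearest NeuroD1 region was 687 kb below the span in H524 (chr9:86595053-86595588, score 3.22) and 2.88 Mb below it in H82 (chr9:84405796-84406099, score 1.82). Of tiles as wide as this window (456 kb), 71.8% held an H524 NeuroD1 region and 32.6% an H82 one, and on chromosome 9 these were 58.8% and 19.5%. For H3K4me3, 63.6% of tiles held a region in H524 and 60.2% in H82. No region of any list was present in 15.7% of the tiles over the genome and in 29.9% of those on chromosome 9.

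NCAM1 lies on chromosome 11 between 112.832 and 113.149 Mb, with its start at the low end. The promoter mark was listed at its start in both lines, and NeuroD1 in H524 alone. The H524 NeuroD1 region at chr11:112832885-112833987 was 1103 bp wide and scored 7.82 (percentile 79.1). It bridged a gap of 486 bp between the 2 H3K4me3 regions of H524, at chr11:112832465-112833021 (score 3.80, percentile 51.2) and chr11:112833508-112834752 (3.25, percentile 40.9). It overlapped the first by 137 bp and the second by 480 bp. In H82 this stretch was a single H3K4me3 region at chr11:112832728-112834375, 1648 bp wide with 2 summits, which scored 4.93 (percentile 66.5) and overlapped both regions of H524. A second H82 region at chr11:112834986-112835518 scored 2.20 and had no counterpart in H524. A low NeuroD1 region of H524 at chr11:112831406-112831705 scored 2.47 and lay 0.759 kb from the nearest H3K4me3 region.

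The highest NeuroD1 score at NCAM1 was found far inside the gene. In H524 the region at chr11:112885038-112885800 scored 14.2 (percentile 93.0) and lay 53.0 kb above the low end of the span and 50.3 kb from H3K4me3. The region at chr11:112884238-112884658, 379 bp from it, scored 4.66 (percentile 55.9). Exon positions in hg19 were not used here, so neither could be placed in an exon or intron. No other NeuroD1 region was listed over the rest of the span. The first H524 region outside the window lay 52.8 kb above the span and scored 6.69. In H82 the nearest NeuroD1 regions were 138 kb below the span (score 7.85, percentile 86.7) and 246 kb above it (score 8.74, percentile 88.9).

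**Figure D3:**
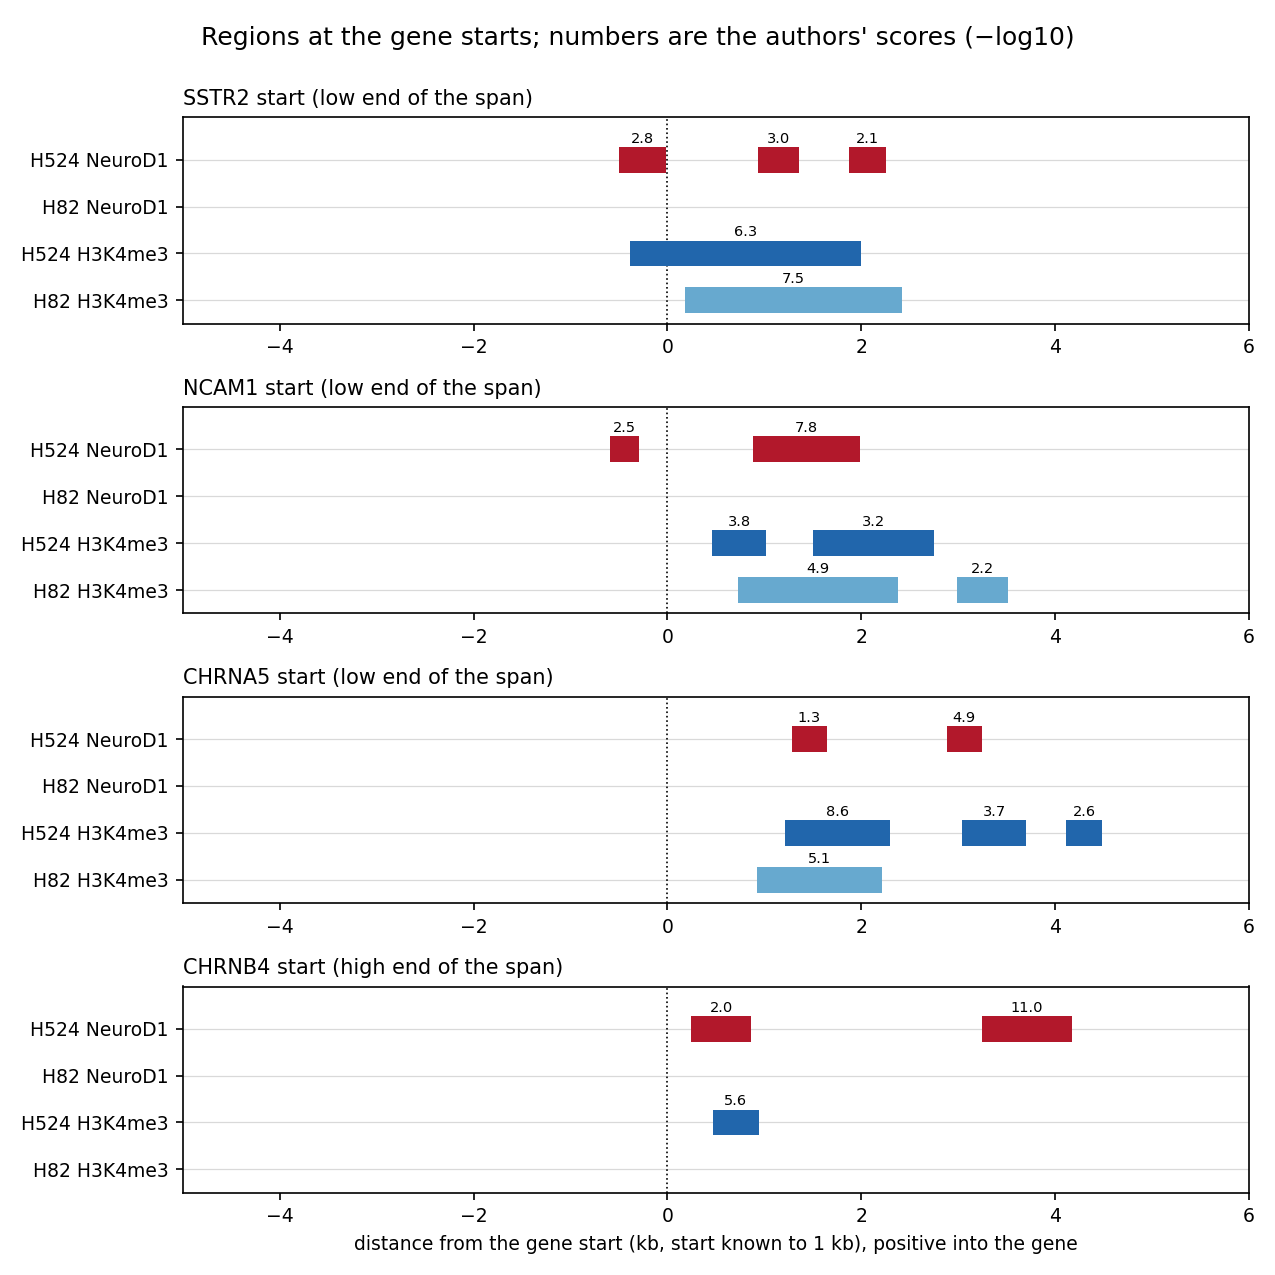
Regions around the starts of SSTR2, NCAM1, CHRNA5 and CHRNB4, as distance in kb from the end of the gene span that holds the start (dotted line) and positive into the gene, with the authors' score above each bar. H524, whose NeuroD1 list is the longer, has NeuroD1 regions at all 4 starts and H82 at none, while the H3K4me3 of H82 is present at the first 3. Of the H524 NeuroD1 regions shown, only chr15:78929827-78930751 at CHRNB4 (rank 2369) is among the 3854 highest-scoring of its list.

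The nicotinic receptor cluster on chromosome 15, from 78.857 to 78.934 Mb, has the CHRNA5 start at the low end and the CHRNB4 start at the high end, with CHRNA3 between them and read in the same direction as CHRNB4. It was the locus where NeuroD1 was listed in both lines. The 2 regions of H82 each overlapped 1 of H524, and all 4 lay above the high end of the span, on the side of the CHRNB4 start and away from the promoter mark. The stronger in both lines was at chr15:78973144-78974576 in H524 (score 60.8, rank 35, percentile 99.8) and at chr15:78973820-78974492 in H82 (score 14.3, rank 126, percentile 96.8), 39.1 and 39.8 kb beyond the span. The weaker was at chr15:78963305-78964898 in H524 (score 39.3, rank 112, percentile 99.5) and at chr15:78963694-78964734 in H82 (score 12.6, rank 179, percentile 95.3), 29.3 and 29.7 kb beyond it. Each H82 region lay wholly inside its H524 counterpart, with centres 296 and 112.5 bp apart. H3K4me3 of the same line was 39.6 and 29.8 kb away in H524 and 115 and 104 kb away in H82. The next protein-coding gene on that side in the RefSeq gene order is ADAMTS7, which encodes a secreted metalloproteinase, and its hg19 position was not looked up.

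Inside the cluster NeuroD1 was listed in H524 alone. At the CHRNB4 end, chr15:78929827-78930751 scored 11.0 (percentile 88.4), 3.25 kb into the gene and 2.31 kb from H3K4me3. At the CHRNB4 start, chr15:78933140-78933756 scored 2.04 (percentile 15.7) and overlapped the H524 H3K4me3 region at chr15:78933058-78933534 (score 5.63, percentile 73.1) by 395 bp. At the CHRNA5 start, chr15:78858289-78858643 scored 1.30, the lowest score of the whole list, and lay wholly inside an H3K4me3 region. Next to it, chr15:78859882-78860242 scored 4.92 (percentile 60.3) and overlapped a second H3K4me3 region by 201 bp. The last region of the window, chr15:78976868-78977241, scored 1.85 (percentile 12.2).

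H3K4me3 was listed at 5 regions inside the cluster span in H524 and at 1 in H82. At the CHRNA5 start both lines had it, at chr15:78858216-78859296 in H524 (score 8.61, percentile 90.4) and at chr15:78857923-78859210 in H82 (score 5.14, percentile 67.7), with 995 bp in common. Only the H524 list went on with chr15:78860042-78860703 (score 3.69) and chr15:78861119-78861489 (2.55). The mark at the CHRNB4 start was also listed in H524 alone. So was the region at chr15:78912582-78913293 (score 3.83, percentile 52.1) inside the cluster, 55.6 kb above the low end and 20.7 kb below the high end. Whether it marks the start of CHRNA3 was not looked up in hg19. Below the cluster, on the side of PSMA4 (a proteasome subunit gene) in the RefSeq gene order, both lines had H3K4me3, at chr15:78832317-78834059 in H524 (score 3.15, percentile 38.2) and at chr15:78832505-78834746 in H82 (score 6.32, percentile 80.2).

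The NeuroD1 regions of H524 near the starts of SSTR2, NCAM1, CHRNA5 and CHRNB4 had a lower median score than the others, with overlapping ranges. Distance was measured to these 4 starts alone, so a region counted as farther may lie at the start of a neighbouring gene. None counted as farther lay inside the span of the nicotinic receptor cluster, which holds CHRNA3. Within 5 kb of them, a distance chosen after the regions and their scores had been seen, lay 9 of the 23, of which 3 scored above the list median and 7 overlapped H3K4me3. Their median score was 2.85 (range 1.30 to 11.0) and their median percentile 29.0. The other 14 had a median score of 7.18 (1.85 to 60.8) and a median percentile of 70.7. Of these, 10 scored above the list median and 2 overlapped H3K4me3, both on the COG1 side of SSTR2. Read by the mark instead, the 9 regions that overlapped H3K4me3 had a median score of 3.03 and the 14 that did not had 10.3. Over the whole H524 list the medians of marked and unmarked regions were 3.95 and 4.11. All 8 members left among the 3854 highest-scoring H524 regions were outside the mark. Over the whole H524 list 17292 of 20593 regions were outside it too, and the share among the 3854 was not counted. Both H82 regions were more than 5 kb from these 4 starts and did not overlap H3K4me3, with scores of 12.6 and 14.3, above the median of 3.61 of their list.

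**Figure D4:**
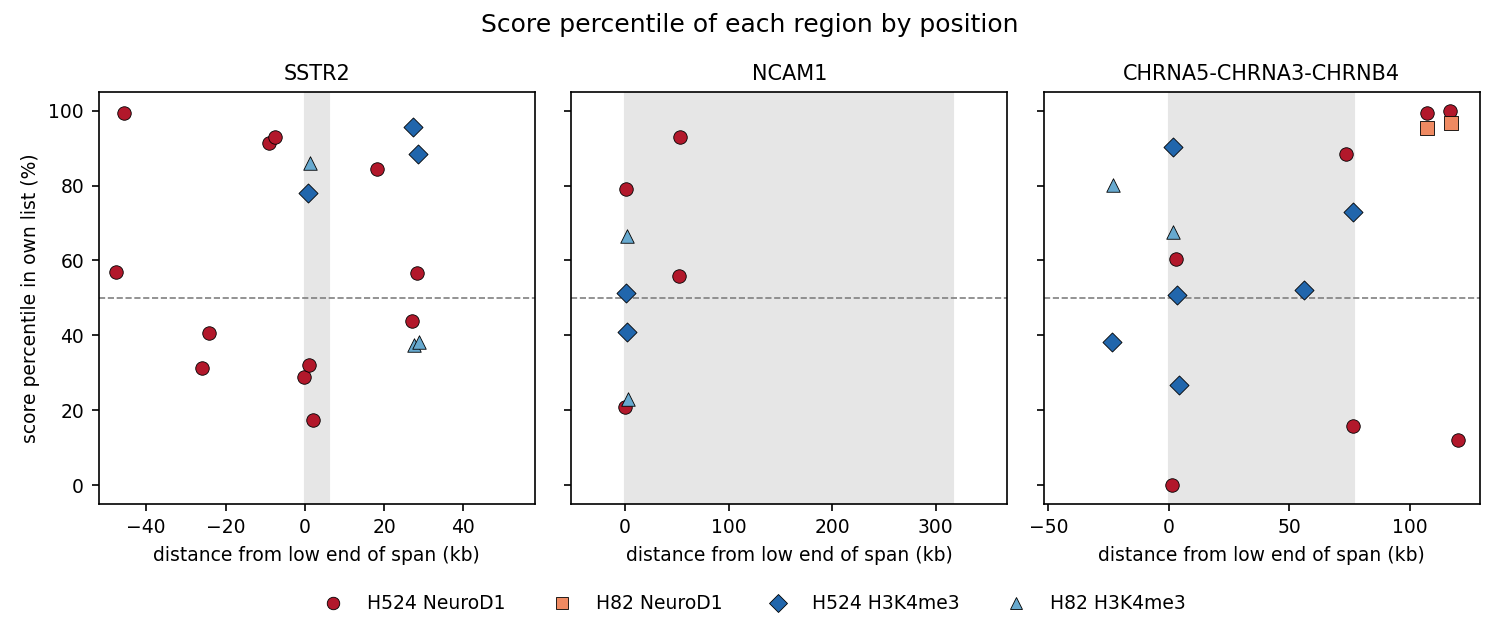
Percentile by score of each region within its own list against its distance in kb from the low end of the gene span (grey), for the 3 loci with regions; the dashed line is at 50%. NeuroD1 regions of H524 reach percentiles of 99.5 near SSTR2 and 99.8 near the nicotinic receptor cluster at positions outside the gene spans.

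The overlaps of the members were set beside those of the whole lists. In H524, 9 of 23 NeuroD1 regions overlapped H3K4me3 (39.1%, 19.7 to 61.5), against 16.0% of the whole list. The windows were drawn around genes and the whole list was not, and 7 of these 9 lay within 5 kb of a gene start. With the lists limited to equal length, 0 of 8 H524 regions overlapped the mark. In H82, 0 of 2 NeuroD1 regions overlapped it (0 to 84.2%), against 29.4% of the whole list. Shared with the other line were 2 of 23 NeuroD1 regions in H524 (8.70%, 1.07 to 28.0), near the 9.98% of the whole list. In H82 it was 2 of 2 (15.8 to 100%), against 53.6%. Of the H3K4me3 regions, 7 of 11 in H524 (63.6%, 30.8 to 89.1) and 6 of 7 in H82 (85.7%, 42.1 to 99.6) were shared, against 52.9% and 52.4% of the whole lists. NeuroD1 of the same line lay on 8 of the 11 H3K4me3 regions in H524 (72.7%, 39.0 to 94.0), against 18.0% of the whole list, and on 0 of the 7 in H82 (0 to 41.0%), against 6.34%. With the lists limited to equal length this H524 count falls to 0 of 11, and the share of the whole list was not recomputed. The members were picked by gene and several lie within a few kb of each other, so these shares describe 3 loci and were not tested.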

How the data were processed

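The authors deposited 1 peak list for each of 4 libraries, with chromosome, start, end, name and score and no header. No file states the unit of the score. The deposited values were taken to be −log10 of q-values, since the lowest NeuroD1 score of either line was 1.30, near −log10 of 0.05. The submitters' processing notes name Bowtie 1.1.2, MACS2 2.1.1 and the build hg19. How these were set, and whether peak calling drew on the 2 input libraries, is not given in the sources used here. Both inputs were left out.

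Entries with identical intervals were merged, keeping the highest score. Regions were assigned to a locus when any base lay within 50 kb of its span. Overlap needed at least 1 bp. Non-overlapping tiles ran from the first to the last region of any list on each chromosome, stretches without regions included. Positions are 1-based in hg19. Counting was done in Python 3.11.15 (pandas 2.3.3, numpy 2.4.6) and tested on simulated data, intervals came from scipy 1.17.1 and figures from matplotlib 3.10.9.

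The members, lists and comparisons were chosen with earlier results of these data known. Named regions were all NeuroD1 regions of a line with at most 10 at a locus, otherwise the 5 highest-scoring and the shared ones, and of H3K4me3 the 3 highest-scoring per locus and line and those on NeuroD1. Other named regions were added after their values were seen. Other somatostatin, neurotrophin and nicotinic receptor genes, markers of the cell type, and genes with a like pattern were not analysed here, since no hg19 positions were used beyond the spans of the 6 genes.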

Additional observations from a re-analysis of the deposited data

How the results depend on the processing

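Counts near the 4 loci moved with the choices that set which regions enter. Limiting the 2 lists of each antibody to equal length gave 8 NeuroD1 regions in H524, none of which overlapped H3K4me3 (0). Over the whole H524 NeuroD1 list 16.0% of regions overlapped it. A score at or above the list median gave 13 NeuroD1 regions in H524, of which 3 overlapped H3K4me3, and 4 H3K4me3 regions in H82. The gene span alone gave 9 NeuroD1 regions in H524 and 0 in H82, no shared region in either line (0 and 0) and 4 H3K4me3 regions in H82. With 10 kb on each side these were 13 and 0, 0 and 0, and 4, and with 100 kb H82 had 4 NeuroD1 and 11 H3K4me3 regions. Counting every entry gave 18 H3K4me3 regions in H524 and 14 in H82, and joining regions within 1 kb gave 7 in H524. The remaining 52 of 72 recomputed totals stayed within 1.5 times the reported count. Of 128 recomputed counts for single loci, 98 did so, 22 were lower and 8 higher. Both tallies of unchanged counts include those that were 0 and stayed 0. Among these were all NTRK2 counts and the H82 NeuroD1 regions overlapping H3K4me3. NTRK2 had 0 regions in every list under all 8 alternatives to the score, window, list length and entries. This could not come out otherwise, since the nearest listed region lay 686 kb from the span and the widest window reached 100 kb. No paired analysis was possible because each group has 1 library. Unknown depth limits what an empty window shows.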
